A study of Rattus norvegicus with 6 samples.

Results

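Mitochondrial ribosomal protein genes were taken as all rows of the count table whose gene name begins with Mrpl or Mrps followed by a digit, 76 of 32883 genes. The libraries hold RNA recovered with oligonucleotide pools from GH4C1 cells, an established wild-type rat pituitary line that makes growth hormone and prolactin. All cells had received psoralen, which crosslinks paired strands of RNA when activated by light. There were 3 libraries of oligo pool A and 3 of oligo pool B, made to look for RNAs in direct contact with the long noncoding RNA Neat1. The labels do not say what either pool targets within that RNA or whether either is a control, nor whether the libraries of a pool came from separate cultures, so p-values here measure the spread between these libraries. A count reflects both how much of a transcript the cells held and how well it was recovered, and these cannot be told apart here. The line's own markers were present in every library, given here as CPM, a gene's counts scaled to a common library total. Gh1, the growth hormone gene, had a pool A mean of 170 ± 2.8 CPM and a pool B mean of 166 ± 19 CPM (SD, n = 3). Pou1f1, the transcription factor of this lineage, was at 158 ± 16 and 204 ± 32 CPM (SD, n = 3). Prl, the prolactin gene, was at 713 ± 41 and 445 ± 56 CPM (SD, n = 3) and was higher with pool A (log2 fold change 0.83 ± 0.14, SE, edgeR adjusted p 1.26e-05). Tshb, Fshb and Alb, markers of other pituitary cells and of liver, were listed at 0 in all 6 libraries, while Pomc, S100b, Ptprc and Col1a1 had at most 18 counts in a library. Lhb, a gonadotroph marker, was higher with pool B (log2 fold change -1.68 ± 0.28, SE, edgeR adjusted p 1.99e-05), and the progenitor marker Sox2 was higher with pool A (1.13 ± 0.24, SE, edgeR adjusted p 0.00048). The mean counts of Lhb and Sox2 were between 70.8 and 101 per library, so both were detected. Their part in the results below was not tested.

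The mitochondrial ribosome translates the few proteins encoded by mitochondrial DNA, all of them parts of the oxidative phosphorylation machinery. Its RNAs come from the mitochondrial genome, but its proteins are encoded in the nucleus, made in the cytosol and imported. The large subunit joins amino acids and holds the exit tunnel, and the small subunit binds and decodes the messenger RNA. Some of the proteins descend from bacterial ribosomal proteins and others are found in mitochondria only. Gene names do not always give the subunit: Mrps30 and Mrps18a encode large-subunit proteins, and Mrps36 encodes a component of the 2-oxoglutarate dehydrogenase complex. By these assignments the rows comprised 26 small-subunit genes, 48 large-subunit genes, Mrps36, and Mrps21l, which was left unclassified.

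The 76 genes were also compared by a feature that did not enter their choice, the letters of their promoters. RefSeq promoters (GRCr8, 250 bases before to 50 after the start) were matched by symbol for 60 of them and searched on both strands. The ETS-family core CCGGAAG lay in 21 of these 60 (35%) and in 9.22% of 27457 rat promoters of the same length. The YY1 core AAGATGGC lay in 15 (25%) against 3.44%, and the NRF1 core GCGCATGC in 5 (8.33%) against 2.66%. At least 1 of these motifs lay in 33 of the 60 promoters (55%) and in 14.1% of all promoters. ETS-family factors, YY1 and NRF1 are textbook regulators of nuclear genes for mitochondrial proteins, and a match here is a match of letters only. The 120 bases before the start of 3 genes that differed between the pools are shown, 5′ to 3′ on the gene's strand, because they hold such a core, which is in capitals. Mrpl17 (chr1:169575700-169575819, minus strand) and Mrpl52 (chr15:31852816-31852935, plus strand) were higher with pool A, and Mrps31 (chr16:76324066-76324185, minus strand) with pool B. The capitals mark the NRF1 core in Mrpl17 and the ETS core, on either strand, in the others.
Mrpl17: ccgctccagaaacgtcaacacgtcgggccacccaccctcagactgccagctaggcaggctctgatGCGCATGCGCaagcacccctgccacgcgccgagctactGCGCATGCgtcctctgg
Mrpl52: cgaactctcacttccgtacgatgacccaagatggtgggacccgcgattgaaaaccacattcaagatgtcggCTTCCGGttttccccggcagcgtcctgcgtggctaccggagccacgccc
Mrps31: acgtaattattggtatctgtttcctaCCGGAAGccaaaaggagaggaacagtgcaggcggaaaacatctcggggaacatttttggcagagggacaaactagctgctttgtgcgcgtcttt
Of the genes higher with pool A, 5 of 7 matched promoters held at least 1 motif, and of those higher with pool B, 5 of 11 did. No relation of promoter letters to the pull-down was tested.

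Together the 76 genes received a small and similar part of each library. They held 0.146%, 0.143% and 0.150% of the counts in replicates 1, 2 and 3 of pool A, and 0.144%, 0.170% and 0.168% in those of pool B. The ranges overlapped, and the mean of pool A minus that of pool B was -0.015 percentage points (exact permutation test, two-sided, p = 0.3, where 3 against 3 libraries cannot go below 0.1). The SD was 0.0036 within pool A and 0.014 within pool B. Of the 76 genes, 67 had enough counts to be tested. The mean count of a tested gene was between 9.83 and 302 per library, with a median of 49.5, so the depth behind a single gene was modest. Library totals ran from 1826390 to 3685899 counts.

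Individual genes differed between the pools in both directions, and no common direction appeared. Of the 67 tested genes, 23 (34.3%) differed at an edgeR adjusted p under 0.05, against 40.6% of all 11582 tested genes. They were split into 11 genes for which pool A was higher (16.4%, against 18.6% of all tested genes) and 12 for which pool B was (17.9%, against 22.0%). A difference of more than 2-fold was found for 17 of the 67 genes (25.4%), the same share as the 25.4% of all genes. The median log2 fold change of pool A over pool B was -0.01, and 0.02 over all tested genes. CPM ranges of the pools did not overlap for 29 of the 67 genes (43.3%), against 49.1% of all genes. These shares lie near or below the background, so the family as a whole did not stand out from the rest of the table. Tested members had a median of 49.5 counts and a median standard error of 0.34, against 72 and 0.29 over all tested genes. The part of this lower depth in the shares was not tested. Scaled to total counts alone the calls were 7 and 13, so that 35% of the called genes were higher with pool A in place of 47.8%. The number higher with pool A also rested on single libraries, falling to 6 when the first pool B library was left out and to 7 when the first pool A library was. Calls over all genes fell there as well, from 4700 to 4399 and 4138 in the same order.

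**Figure D1:**
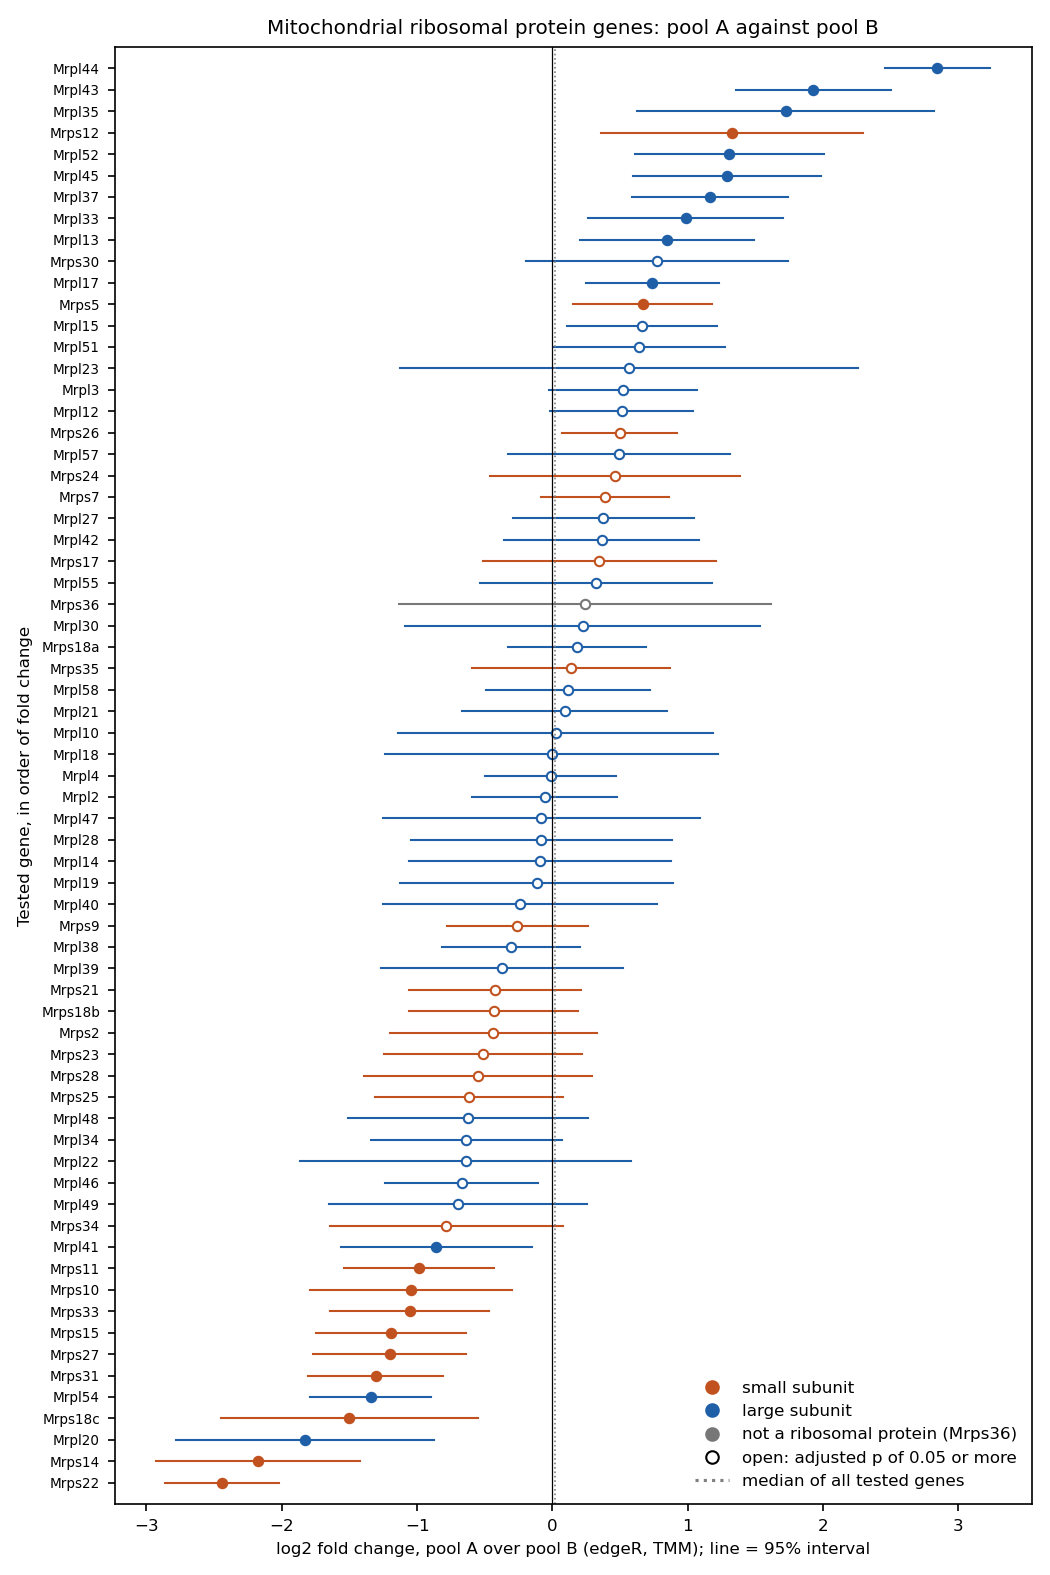
Log2 fold change of pool A over pool B (horizontal axis) for each of the 67 tested genes, with its 95% interval, coloured by subunit and filled where the edgeR adjusted p was under 0.05. Filled points at the top, higher with pool A, include 9 of 42 large-subunit genes (21.4%, near the 18.6% of all tested genes). Those at the bottom, higher with pool B, include 9 of 24 small-subunit genes (37.5%, against 22.0% of all tested genes).

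The calls of each subunit are read here against all tested genes, with 18.6% called in favour of pool A and 22.0% in favour of pool B. Of 24 tested small-subunit genes, 9 were higher with pool B (37.5%) and 2 with pool A (8.33%). Of 42 tested large-subunit genes, 3 were higher with pool B (7.14%) and 9 with pool A (21.4%). The last share lies near that of all tested genes, while the large subunit's share with pool B was below it, and the small subunit's was above it with pool B and below it with pool A. The median log2 fold change was -0.53 for the small subunit and 0.15 for the large subunit, beside 0.02 over all tested genes. These are descriptions of the lists, and the difference between them was not tested across genes. Without pool B replicate 2, 5 small-subunit genes were higher with pool A and the large-subunit median was 0.31. Leaving out replicate 1 or 3 of either pool left 0 small-subunit genes higher with pool A. The lead of pool A in the large subunit narrowed in other settings. It was 6 genes against 4 with total counts alone, where the median was 0.0024, and again 6 against 4 without pool B replicate 1. The small subunit had 1 against 9 with total counts alone and had 0 against 7 without pool B replicate 1.

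The same division can be read within each library, where no scaling between libraries enters. Of the counts in genes of either subunit, small-subunit genes held 31.4%, 29.5% and 32.2% in replicates 1, 2 and 3 of pool A. They held 49.5%, 47.3% and 45.4% in those of pool B. All 3 pool B libraries were above all 3 pool A libraries, and the gap was larger than the 95% Wilson intervals, the widest of which ran from 45.5% to 49.0%. The intervals cover counting error only. Mrpl44 and Mrps22 contributed many of these counts, and without them the shares were 34.1%, 33.4% and 35.1% with pool A and 45.8%, 43.9% and 42.1% with pool B. The groups still did not overlap, with a smaller gap. This measure was chosen after the fold changes had been seen and carries no test.

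The genes were also divided by origin, with Mrps18a and Mrps18b placed among the mitochondria-specific ones although they descend from bacterial S18. Neither was called, so the numbers called do not rest on their placement, while the totals and medians do. Among small-subunit genes, those with bacterial homologues had 2 of 14 tested genes higher with pool A and 5 in the other direction. The mitochondria-specific ones had 0 of 10 and 4 of 10. Among large-subunit genes, the numbers were 4 and 1 of 23 with bacterial homologues and 5 and 2 of 19 that are mitochondria-specific. With pool A the large-subunit shares were 17.4% and 26.3%, and with pool B the small-subunit shares were 35.7% and 40%, beside 18.6% and 22.0% of all tested genes. These classes are small, and nothing particular to an origin is read from them. The medians of these classes, in the same order, were -0.43, -0.70, 0.09 and 0.18 on the log2 scale.

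**Figure D2:**
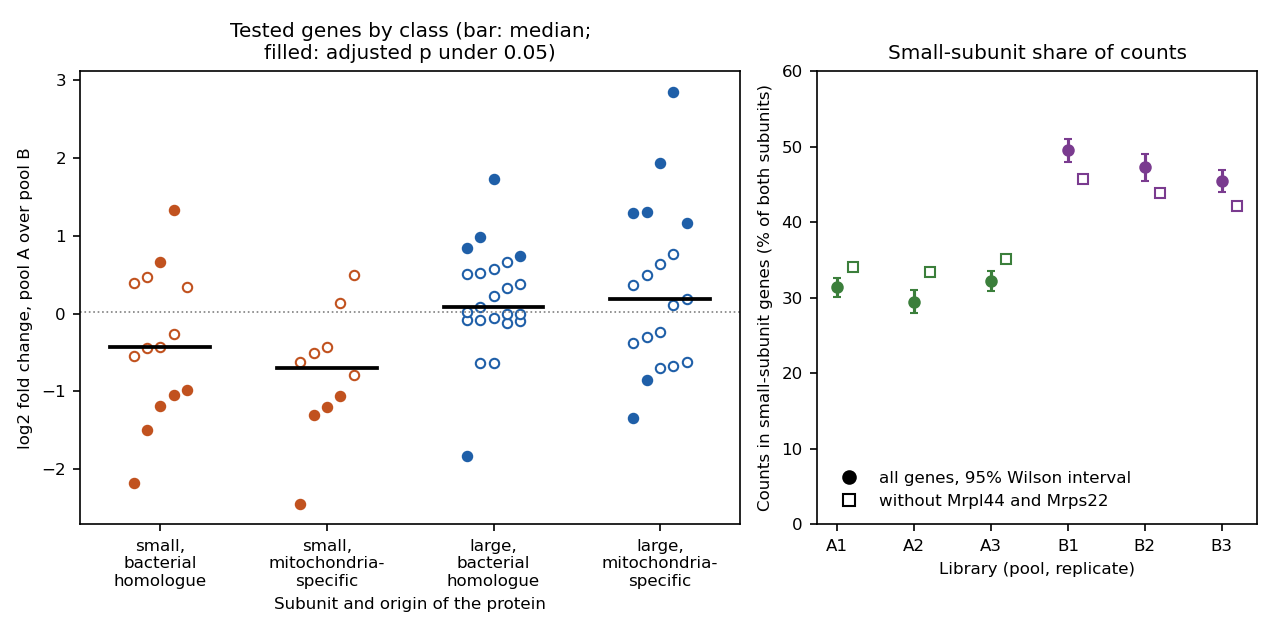
Left, log2 fold change of pool A over pool B for tested genes in each class of subunit and origin, with the median as a bar and filled points for an edgeR adjusted p under 0.05. Right, small-subunit genes as a percentage of the counts of both subunits in each library, with 95% Wilson intervals; the pool A libraries sit between 29.5% and 32.2% and the pool B libraries between 45.4% and 49.5%, and the open squares show the shares without Mrpl44 and Mrps22.

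The largest difference was that of the large-subunit gene Mrpl44 (ENSRNOG00000015231), which encodes a mitochondria-specific protein related to ribonuclease III. It had 157, 191 and 173 CPM in replicates 1, 2 and 3 of pool A and 26.2, 20.8 and 32.2 CPM in those of pool B. Every pool A library was far above every pool B library. Its log2 fold change was 2.84 ± 0.19 (SE), a 7.18-fold difference with an edgeR adjusted p of 1.39e-12. Mrpl43 (ENSRNOG00000014890), another mitochondria-specific large-subunit gene, had 65.9, 47.9 and 35.8 CPM with pool A and 16.02, 15.3 and 12.5 CPM with pool B. Its pool A libraries were spread widely but all lay above pool B (log2 fold change 1.93 ± 0.28, SE, edgeR adjusted p 2.22e-06).

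Further large-subunit genes were higher with pool A by smaller amounts. Mrpl45, whose protein helps to anchor the ribosome at the inner membrane, had 17.9, 25.7 and 41.1 CPM with pool A and 12.6, 8.76 and 15.9 CPM with pool B. The nearest libraries of the 2 pools were close, and the log2 fold change was 1.29 ± 0.34 (SE, edgeR adjusted p 0.00302). Mrpl37 had 59.1, 56.6 and 41.1 CPM with pool A and 13.3, 32.3 and 33.3 CPM with pool B, where replicate 1 stood below the others. Its log2 fold change was 1.16 ± 0.28 (SE, edgeR adjusted p 0.00144). Mrpl52 was even within pool A, with 23.9, 24.1 and 28.5 CPM, and had 9.54, 17.5 and 7.94 CPM with pool B. The fitted log2 fold change was 1.31 ± 0.34 (SE, edgeR adjusted p 0.00277).

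The other called large-subunit genes of this direction encode proteins with bacterial homologues. Mrpl35 had 9.77, 12.7 and 11.9 CPM with pool A and 2.39, 6.02 and 3.40 CPM with pool B, on 7, 11 and 9 counts in pool B. The difference was 1.72 ± 0.53 (SE) on the log2 scale, with an edgeR adjusted p of 0.0108. Mrpl33, Mrpl13 and Mrpl17, the last a protein near the exit of the tunnel, had log2 fold changes of 0.98, 0.84 and 0.74 and edgeR adjusted p-values of 0.0252, 0.0321 and 0.0148. Each of these 3 calls was lost with total counts alone and without pool B replicate 1. Mrpl17 was also lost without pool A replicate 1 or 2, Mrpl13 without pool A replicate 1 or 2 or pool B replicate 3, and Mrpl33 without pool A replicate 2 or pool B replicate 3. The highest adjusted p over the alternatives was 0.0774 for Mrpl17, 0.167 for Mrpl13 and 0.150 for Mrpl33.

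The 2 small-subunit genes higher with pool A were less firmly called. Mrps5, of bacterial origin, had 38.3, 32.0 and 43.0 CPM with pool A and 27.9, 31.8 and 19.7 CPM with pool B, so that the nearest libraries nearly touched. Its log2 fold change was 0.67 ± 0.25 (SE, edgeR adjusted p 0.0344). Mrps12, whose protein lies at the decoding centre, fell outside the naming criteria because its ranges overlapped, with 16.01, 7.12 and 17.6 CPM against 5.45, 8.21 and 4.54 CPM. Its log2 fold change was 1.32 ± 0.47 (SE, edgeR adjusted p 0.0256). Both calls were lost without replicate 1 or 3 of either pool, that of Mrps5 also with total counts alone and that of Mrps12 with the replicate block, with adjusted p-values of up to 0.173 and 0.114 over the alternatives.

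**Figure D3:**
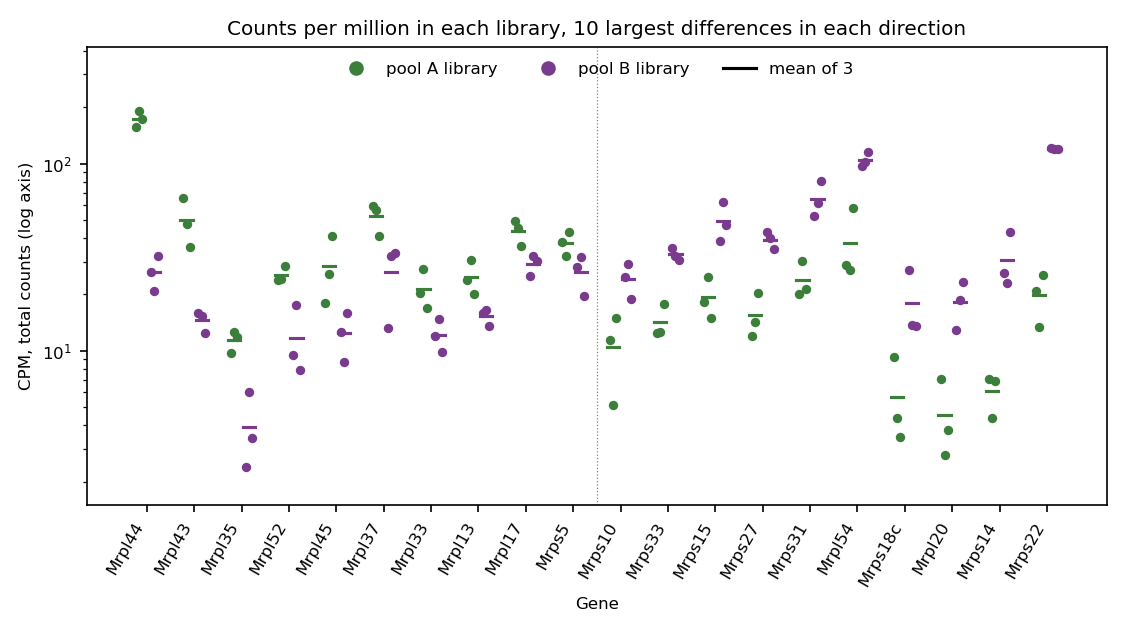
CPM in each library on a log axis for the 10 genes with the largest differences in each direction that met the naming criteria; points are libraries and bars are means of 3. Mrpl44 at the left lies between 157 and 191 CPM with pool A and between 20.8 and 32.2 CPM with pool B, and Mrps22 at the right shows the reverse.

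In favour of pool B the largest difference was that of Mrps22 (ENSRNOG00000047984), a mitochondria-specific gene of the small subunit whose mutation in people causes a respiratory chain deficiency. It had 121, 120 and 120 CPM in replicates 1, 2 and 3 of pool B and 20.9, 13.4 and 25.4 CPM in those of pool A. The pool B libraries were nearly identical and all stood far above pool A. The log2 fold change was -2.44 ± 0.21 (SE), a 5.43-fold difference with an edgeR adjusted p of 1.41e-10. Mrps14, the homologue of bacterial S14, had 25.9, 23.0 and 43.1 CPM with pool B and 7.05, 4.35 and 6.90 CPM with pool A. No library of pool A came near pool B, and the log2 fold change was -2.17 ± 0.37 (SE, edgeR adjusted p 2.16e-05).

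A group of small-subunit genes followed at 2-fold or a little more. Mrps31 had 52.5, 61.3 and 81.0 CPM with pool B and 20.1, 30.1 and 21.3 CPM with pool A (log2 fold change -1.31 ± 0.24, SE, edgeR adjusted p 8.11e-05). Mrps27, a pentatricopeptide repeat protein of a class that binds RNA, had 42.9, 39.97 and 34.8 CPM with pool B and 11.9, 14.2 and 20.4 CPM with pool A. Mrps15, of bacterial origin, had 38.5, 62.4 and 47.3 CPM against 18.2, 24.9 and 15.1 CPM. In each of these the pools were apart in all 6 libraries, and the log2 fold changes of Mrps27 and Mrps15 were -1.20 and -1.19 (edgeR adjusted p 0.000823 and 0.000714). Mrps33 and Mrps10 had log2 fold changes of -1.05 and -1.05 (edgeR adjusted p 0.00386 and 0.0228). The call for Mrps10 was lost without replicate 2 of either pool or replicate 1 of pool B, with an adjusted p of up to 0.133 over the alternatives.

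Fewer large-subunit genes were higher with pool B. Mrpl54, mitochondria-specific, had 97.1, 102 and 115 CPM with pool B and 28.8, 26.9 and 57.7 CPM with pool A, where replicate 3 stood above the others. Its log2 fold change was -1.34 ± 0.22 (SE, edgeR adjusted p 1.22e-05). Mrpl20, of bacterial origin, had 12.95, 18.6 and 23.5 CPM against 7.05, 2.77 and 3.76 CPM, on only 7 counts in pool A replicate 2. Its log2 fold change was -1.83 ± 0.46 (SE, edgeR adjusted p 0.00215). Mrpl41 was outside the 10 largest differences and was called at an edgeR adjusted p of 0.048, a call lost in 11 of 14 alternatives. These were DESeq2's test and size factors, upper-quartile factors, no filter, limma-voom, the replicate block, and leaving out each library in turn except pool B replicate 1, with an adjusted p of at most 0.179 over the alternatives.

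Mrps11, also outside the 10 largest, lies head to head with Mrpl46 in the rat genome, with 234 bases between their annotated starts (RefSeq, GRCr8). Mrps11 had 42.6, 30.1 and 44.6 CPM with pool B and 14.7, 20.2 and 19.4 CPM with pool A (log2 fold change -0.98 ± 0.27, SE, edgeR adjusted p 0.00438). Mrpl46 had 26.6, 42.2 and 55.2 CPM with pool B and 21.7, 26.9 and 21.6 CPM with pool A, with ranges that just overlapped. At -0.67 ± 0.27 (SE) on the log2 scale, its difference missed the threshold (edgeR adjusted p 0.0521), and it passed with total counts alone, with no filter or without pool B replicate 1. Whether reads of this neighbouring pair were separated by strand in the counting was not given in the sources used here.

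Bacterial S18 has 3 descendants in mammalian mitochondria, of which Mrps18b and Mrps18c belong to the small subunit and Mrps18a to the large one. Of these genes Mrps18c passed the threshold, and differences among the 3 were not tested. Mrps18c had 26.9, 13.7 and 13.6 CPM with pool B and 9.22, 4.35 and 3.45 CPM with pool A, and a log2 fold change of -1.50 ± 0.46 (SE, edgeR adjusted p 0.0104). The ranges did not overlap, but the adjusted p reached 0.122 over the alternatives and the call was lost without pool A replicate 3 or pool B replicate 1. Mrps18b had overlapping ranges, with 26.9, 17.8 and 18.2 CPM in pool A and 22.5, 48.2 and 25.7 CPM in pool B, and a log2 fold change of -0.43 (95% interval -1.06 to 0.19, edgeR adjusted p 0.279). Mrps18a, with 30.1, 34.0 and 37.6 CPM against 28.3, 44.3 and 27.6 CPM, had a log2 fold change of 0.18 (95% interval -0.33 to 0.69, edgeR adjusted p 0.603). Close relatives can share reads, and how such reads were counted is not stated.

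For 44 tested genes no difference passed the threshold, which does not show equality. The 95% interval of the log2 fold change lay within 2-fold in both directions for only 10 of them. Among genes with a mean of at least 50 counts, the 3 nearest to no change were Mrpl4 (log2 fold change -0.01, 95% interval -0.50 to 0.47), Mrpl2 (-0.06, -0.59 to 0.48) and Mrpl58 (0.11, -0.49 to 0.72). Mrpl58 encodes a peptidyl-tRNA hydrolase that is built into the large subunit. Their CPM ranges overlapped between the pools. Mrps26, which received more counts than most of the family, as did Mrpl44, Mrpl54 and Mrps22, had 58.1, 49.0 and 55.2 CPM with pool A and 40.2, 49.3 and 38.6 CPM with pool B. Its edgeR adjusted p was 0.0563, within a range of 0.0208 to 0.208 over the alternatives, and it was called with DESeq2 size factors, upper-quartile factors, limma-voom, at least 10 counts in every library, or without pool B replicate 2. Another 7 uncalled genes had all 3 pool B libraries above pool A. Of the 34 tested genes at or above the median count 15 were called, and of the 33 below it 8, where the median standard error was 0.46 in place of 0.27. Over all tested genes 40.6% were called. The part of depth in the calls was not tested.

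The 9 untested genes were too thinly covered. Mrpl36, Mrpl53 and Mrps21l were listed at 0 in all 6 libraries, and a count of 0 allows up to 3 counts, or between 0.814 and 1.64 CPM. Mrps16, the homologue of bacterial S16, had 20, 7 and 13 counts with pool A and 1, 6 and 0 with pool B. Mrpl50 had 4, 1 and 4 counts with pool A and 20, 3 and 1 with pool B. Mrpl1, Mrpl16, Mrpl32 and Mrps6 had between 0 and 21 counts in a library. The rows mrpl9, mrpl11 and mrpl24, spelled with a small initial letter, were not taken in by the naming pattern. They encode large-subunit proteins, and their log2 fold changes of -0.23, -0.14 and -0.18 did not pass the threshold (edgeR adjusted p 0.562, 0.852 and 0.744).

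Other proteins of the same ribosome carry other names. Ptcd3, a pentatricopeptide repeat protein of the small subunit, was higher with pool A, with 59.8 ± 2.7 CPM (SD, n = 3) against 35.2 ± 9.3 CPM (SD, n = 3) and a log2 fold change of 0.92 ± 0.23 (SE, edgeR adjusted p 0.00155). Dap3, a GTP-binding protein of the small subunit, was higher with pool B, with a log2 fold change of -0.70 ± 0.26 (SE, edgeR adjusted p 0.0337). These small-subunit genes thus went in opposite directions. Chchd1 and Gadd45gip1 had log2 fold changes of 0.06 and -0.73 and were not called (edgeR adjusted p 0.949 and 0.164).

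The factors that build and serve the mitochondrial ribosome also differed gene by gene. Of 69 tested genes in 5 lists, including those just named, 10 (14.5%) favoured pool A at the threshold and 13 (18.8%) favoured pool B, and the median log2 fold change was 0.07. Both shares lie below the 18.6% and 22.0% of all tested genes, and the 33.3% called in either direction is below 40.6%. Of 23 tested assembly and ribosomal RNA modification genes, 4 favoured pool A (17.4%) and 3 pool B (13.04%). The GTPase gene Eral1, which acts in small-subunit assembly, had a log2 fold change of 1.61 ± 0.42 (SE), while the pseudouridine synthase genes Rpusd3 and Rpusd4 had -1.75 ± 0.22 and -1.74 ± 0.50 (SE), with edgeR adjusted p-values of 0.00267, 3.14e-07 and 0.00609.

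Among 15 tested translation factors, 3 favoured pool A (20%) and 4 pool B (26.7%), near the shares of all tested genes. The elongation factor gene Tufm had a mean of 132 ± 5.0 CPM in pool A against 27.2 ± 1.5 CPM in pool B (SD, n = 3), and a log2 fold change of 2.42 ± 0.18 (SE, edgeR adjusted p 1.44e-11). Tsfm, which encodes the exchange factor that recharges the Tufm protein, was higher with pool B, at 80.1 ± 15.4 CPM against 15.8 ± 5.4 CPM (SD, n = 3), with a log2 fold change of -2.17 ± 0.25 (SE, edgeR adjusted p 6.1e-08). The release factor gene Mtrf1 was also higher with pool B (-1.73 ± 0.35, SE, edgeR adjusted p 0.000251).

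Of 14 tested mitochondrial tRNA synthetase genes, 0 favoured pool A (against 18.6% of all tested genes) and 4 pool B (28.6%, against 22.0%), among them Wars2, Hars2 and Tars2 with log2 fold changes of -1.23, -1.15 and -0.85 (edgeR adjusted p 0.0118, 0.00069 and 0.0008). Of 13 tested genes for synthesis and processing of mitochondrial RNA, 2 favoured pool A (15.4%, against 18.6% of all tested genes) and 1 pool B (7.69%, against 22.0%). Pde12, a phosphodiesterase that trims poly(A) tails of mitochondrial RNA, had a mean of 154 ± 3.4 CPM in pool A against 12.7 ± 5.6 CPM in pool B (SD, n = 3), and a log2 fold change of 3.80 ± 0.23 (SE, edgeR adjusted p 1.58e-13). Elac2 and Supv3l1 had log2 fold changes of 1.12 and -1.58 (edgeR adjusted p 0.000635 and 0.00143).

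Beside the mitochondrial ribosome, the cytosolic ribosomal protein genes had 26 of 77 tested genes higher with pool A (33.8%) against 12 in the other direction (15.6%), with a median log2 fold change of 0.23. Nuclear-encoded subunits of oxidative phosphorylation had 18 of 76 (23.7%) and 12 (15.8%) in the same order, with a median of 0.20. With total counts alone that list had 13 in each direction, and the cytosolic list 22 and 13. The mitochondrial ribosomal protein genes, at 16.4%, 17.9% and -0.01, lay near or below the 18.6% and 22.0% of all tested genes. Of the other lists, the cytosolic one was above that background with pool A, the oxidative phosphorylation list was nearer to it, and both were below it with pool B. The median count of a tested gene was 224 in the cytosolic list, 70.4 in the oxidative phosphorylation list, 49.5 here and 72 over all tested genes. No test between the lists was made.

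**Figure D4:**
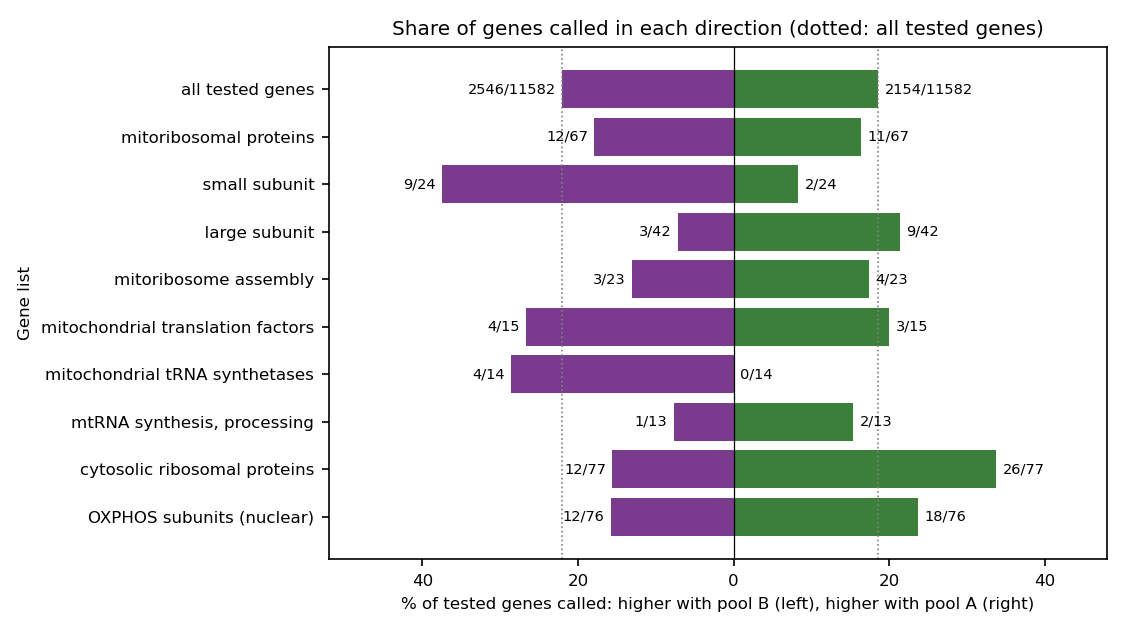
Percentage of tested genes higher with pool B (to the left) and higher with pool A (to the right) at an edgeR adjusted p under 0.05, by gene list, with the numbers beside each bar and the values of all tested genes as dotted lines. The small subunit reaches 37.5% to the left and the large subunit 21.4% to the right, while the whole family lies inside both dotted lines.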

How the data were processed

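The authors deposited raw counts per Ensembl gene for 6 libraries of total RNA, and a mean signal per pool that was not used. STAR and featureCounts are named in the submitters' processing notes. Genome build, annotation version and strand setting are not given in the sources used here. The libraries are strand-specific, per the labels' protocols. Pools were compared on all genes with edgeR 4.0.16 (R 4.3.3): TMM scaling, filterByExpr by pool, the quasi-likelihood test with the pool as only term, and Benjamini-Hochberg adjustment over 11582 genes at 0.05. Standard errors come from the fold change and the F statistic. CPM use total counts, while fold changes use TMM, so the scales differ slightly. The script was tested on simulated data. Members, lists and subunit classes were chosen with earlier results of these data known.

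Named genes were the 10 largest called differences in each direction with CPM ranges apart and a mean of at least 10 counts, the 4 highest mean CPM, the 3 smallest changes at a mean of at least 50 counts, the S18 paralogues, all untested genes, and up to 3 called genes of each other pathway list. Gene lengths were not used, so the rank by mean CPM reflects counts received and not transcript levels. Alternatives were other scalings and filters, DESeq2 1.42.0, limma 3.58.1 (voom), a replicate block, a threshold of 0.01, and leaving out each library.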

Additional observations from a re-analysis of the deposited data

How the results depend on the processing

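Of the 23 called genes, 15 kept the call in each of 14 alternatives that tested them, with the threshold left at 0.05. These were 6 higher with pool A, all of the large subunit, and 9 higher with pool B, 7 of them of the small subunit. Of 404 refits of named or called genes, 360 stayed on their side of the threshold, 39 lost the call, 5 gained it and 0 called values changed sign. In 15 of the 360 the sign changed, all for the uncalled Mrpl2, Mrpl4 and Mrpl58, whose fold changes are near 0. With total counts alone, 7 genes were higher with pool A, 1 of them of the small subunit, and the medians were -0.16 for the family, -0.67 for the small and 0.0024 for the large subunit. All tested genes moved from 0.015 to -0.13 as well. At a threshold of 0.01, 5 genes were higher with pool A, 0 of the small and 5 of the large subunit, and 10 oxidative phosphorylation genes were. The family then had 14 calls in place of 23, and all tested genes had 3526 in place of 4700. The share of counts in the family differed by -0.015 percentage points between the pools and by 0.0010 with TMM-scaled totals. The difference in small-subunit share was -16.4 percentage points, and -9.71 without Mrpl44 and Mrps22. That alternative, the one below on letter case, and all for the subunits were added after seeing the data.

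Leaving out a library gave from 6 to 14 genes higher with pool A and from 10 to 11 with pool B, with a family median of -0.051 to 0.125. Calls over all genes were then 4094 to 4407, against 4700 with all 6 libraries. For the small subunit it gave 0 to 5 and 7 to 9 genes and a median of -0.638 to -0.464, and for the large subunit 6 to 10 and 2 to 4 genes and 0.128 to 0.308. The small-subunit share differed by -17.4 to -15.3 percentage points and the family's share of counts by -0.0227 to -0.0099. Other mitochondrial gene expression lists had 8 to 11 and 12 to 15 called genes, cytosolic ribosomal proteins 22 to 26 and 9 to 12, and oxidative phosphorylation 12 to 17 and 9 to 12. Taking names in any letter case left 11 and 12 calls.

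With the replicate number as a block, 11 and 11 genes were called, 1 of the small subunit with pool A. The calls for Mrpl41 and Mrps12 were lost and Mrpl15 was gained. Same-numbered libraries deviated together with r of 0.0429, -0.0142 and 0.0225, so the numbers pair nothing visible. For the 33 tested genes under 49.5 mean counts the median standard error was 0.46, against 0.27 for the rest.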

Other observations

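Genes next to the 20 members named for their differences had no common direction. Of 40 directly adjacent rows of the table, 25 were tested, and 7 of these were called in the direction of the member, 7 in the opposite direction and 11 were not called. For comparison, 40.6% of all tested genes were called, 18.6% in favour of pool A and 22.0% in favour of pool B. The row after Mrpl44 is Serpine2, a protease inhibitor gene, which was also higher with pool A (log2 fold change 1.64, edgeR adjusted p 0.00881), while Wdfy1, in the row before it, was not called (-0.16, edgeR adjusted p 0.426). The row after Mrps14 is Cacybp, which was higher with pool A (1.34, edgeR adjusted p 1.23e-07) where Mrps14 was higher with pool B. The row after Mrpl13 is Mtbp, higher with pool B (-3.23, edgeR adjusted p 7.53e-12) where Mrpl13 was higher with pool A. The row before Mrps22, AABR07071244.1, was higher with pool B as Mrps22 was (-1.30, edgeR adjusted p 2.44e-06). These neighbours were picked after their values were seen.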
